A study of Mus musculus with 18 samples.

Results

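The 7 genes described here, Ptgds, Dcn, Cxcl12, Fn1, Ltbp1, Loxl1 and Cthrc1, encode secreted signalling and extracellular matrix proteins that are known from the embryonic meninges and the mesenchyme around the brain. They were taken by symbol: every probe that the platform annotation gives to 1 of these symbols was used, which gave 8 probes of the 18525 features tested (7 genes of 13379). Fn1 had 2 probes and each other gene had 1. In counts of genes, the first of the Fn1 probes in the table stood for Fn1. The genes were chosen by their measured values. Ltbp1, Cthrc1, Ptgds, Dcn, Cxcl12 and Fn1 were chosen on their difference between rostral and caudal neocortex, so that difference is given as a description with no test. What chose Loxl1 was not recorded, and all its differences are given in the same way.

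The tissue was neocortex of MF1 mice at E13.5, in mid-gestation, taken from 4 embryos and divided into rostral, middle and caudal parts. MF1 is an outbred laboratory stock. Each part was represented by 3 pools, rostral pools R1 to R3, middle pools M1 to M3 and caudal pools C1 to C3, and the labels give no treatment and no difference between the groups other than position. Total RNA of a pool in Cy3 and of a pool of another region in Cy5 shared each of the 18 arrays, 6 arrays for each pair of regions, and each pool was measured on 4 arrays. Nothing in the labels ties the pools of a region to different embryos, so p-values cover only the spread among these pools, part or all of which may be technical.

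Each value below is a log2 value of a pool relative to the mean of the 9 pools, after each array was centred on its median. A difference between regions is the difference of the means of 3 pools, with its standard error (SE) from a fit across all features. Ratios were read as Cy5 over Cy3, which is likely but not stated in the sources used here. Under that reading the textbook caudal gene Nr2f1 had a rostral minus caudal difference of −1.02 ± 0.07 (log2, SE), and its other probe one of −1.02 ± 0.17. Emx2, also a caudal gene, had −0.25 ± 0.08 and Etv1, a rostral gene, 0.80 ± 0.07. With the opposite reading every difference would change its sign, and high and low would change places in every sentence. An array gave between 18085 and 20693 values, the 8 probes had values on all 18 arrays, and the number of arrays limits the precision. The values are ratios, so they say nothing about the absolute level of a gene, and whether the dissected tissue held meninges could not be read from them.

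The meninges cover the developing cortex and are built mainly by fibroblasts of mesenchymal origin, which lay down the basement membrane at the pial surface and release signals to the cells below. Cxcl12 is the chemokine by which the meninges hold Cajal-Retzius cells and migrating interneurons near the surface, and it acts through the receptors Cxcr4 and Ackr3. Ptgds makes prostaglandin D2 and, as beta-trace protein, is a main secreted product of the leptomeninges. In the matrix, fibronectin (Fn1) binds cells through integrins, latent TGF-beta binding protein 1 (Ltbp1) tethers inactive TGF-beta to fibronectin and fibrillin, decorin (Dcn) coats collagen fibrils, lysyl oxidase-like 1 (Loxl1) cross-links elastin, and Cthrc1 is a secreted protein that favours planar polarity signalling by Wnt proteins.

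The promoters of the genes that the reference table held are shown so that genes with a like profile along the axis can be compared in sequence. RefSeq's table (GRCm38.p6) held a start for Ptgds and Cxcl12 and 2 starts for Ltbp1. The 150 bases before each start are given 5′ to 3′ on the gene's strand, with the matches in capitals. Both strands were searched for the core promoter motif TATAAA and its variant ATAAAT, for the motif CCAAT, for GGGCGG (GC box), TGANTCA (AP-1), TGACGTCA (cAMP response element), GTAAACA (forkhead) and CAGACA (SMAD).
Ptgds, chr2:25469750-25469899, minus strand: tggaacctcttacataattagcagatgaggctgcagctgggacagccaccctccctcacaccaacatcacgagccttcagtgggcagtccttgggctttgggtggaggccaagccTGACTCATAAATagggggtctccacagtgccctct
Cxcl12, chr6:117168385-117168534, plus strand: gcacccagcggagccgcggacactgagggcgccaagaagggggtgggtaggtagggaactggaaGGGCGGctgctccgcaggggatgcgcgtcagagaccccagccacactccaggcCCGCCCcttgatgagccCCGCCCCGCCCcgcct
Ltbp1, chr17:75005379-75005528, plus strand: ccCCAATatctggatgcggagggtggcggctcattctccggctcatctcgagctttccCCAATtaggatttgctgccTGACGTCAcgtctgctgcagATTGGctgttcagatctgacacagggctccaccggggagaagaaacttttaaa
Ltbp1 (other start), chr17:75178631-75178780, plus strand: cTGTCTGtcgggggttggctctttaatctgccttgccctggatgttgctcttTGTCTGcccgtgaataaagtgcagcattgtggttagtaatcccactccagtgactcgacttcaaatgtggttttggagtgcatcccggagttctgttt

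The 4 windows had no match in common. Ptgds had an AP-1 match that began 35 bases before the start and an ATAAAT match that began 29 bases before it, and the matches shared 1 base. Of all 32851 promoters in the table, 4.24% held TGANTCA and 7.0% held ATAAAT in a window of this length. Cxcl12 had 4 GC boxes, of which the last 2 shared 1 base, in a window with a GC content of 72.7%, against a median of 54.0% over all promoters. A GC box was found in 28.6% of all promoters. The first Ltbp1 window held CCAAT 3 times (24.5% of promoters hold it) and a full cAMP response element, found in 1.36% of promoters. The other Ltbp1 window held CAGACA, read on the opposite strand as TGTCTG, at 2 places, and 10.3% of promoters hold this motif. TATAAA (7.57% of promoters) and GTAAACA (1.8%) were not among the letters of the 4 windows. These matches describe letters only.

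Between the ends of the neocortex, 6 of the 7 genes had all 3 rostral pools below all 3 caudal pools. Of all features, 5.89% had this order, and since the genes were chosen on this contrast nothing is read from their count. Ltbp1 and Ptgds had the widest differences, and Fn1 the smallest of the 6. The median difference between rostral and caudal over the 7 genes was −0.38 on the log2 scale, against 0.00 over all features, of which 49.5% were below 0. In bulk pools a smaller number of cells of a type and less RNA per cell cannot be told apart.

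**Figure D1:**
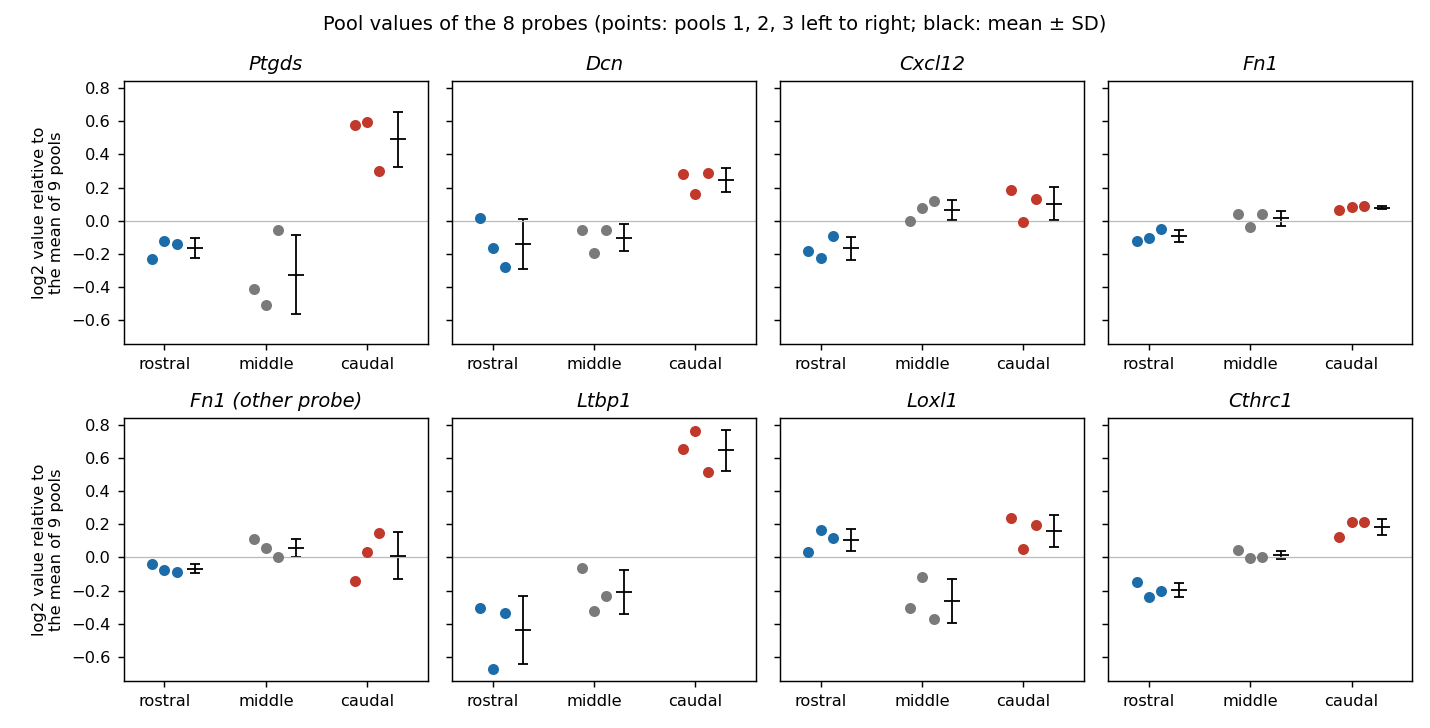
Log2 value of each of the 9 pools relative to their mean, for the 8 probes; points are pools 1, 2 and 3 of a region from left to right, and black marks show the mean ± SD of 3 pools. Caudal points lie above all rostral points in every panel except Loxl1 and the other Fn1 probe, and the caudal points stand farthest from the rest for Ltbp1 and Ptgds.

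Among the secreted signals, Ptgds had pool values of −0.23, −0.12 and −0.14 in R1, R2 and R3, −0.41, −0.51 and −0.06 in M1, M2 and M3, and 0.58, 0.60 and 0.30 in C1, C2 and C3. The caudal pools were all higher than the other 6, and how many of all features had this order was not counted. M1 and M2 lay below all 3 rostral pools, and M3 lay above them. The means were −0.16 ± 0.06 rostral, −0.33 ± 0.24 middle and 0.49 ± 0.17 caudal (SD, n = 3 pools each). Rostral minus caudal was −0.66 ± 0.13 (SE), so that caudal was 1.58-fold higher, and 4.06% of all features had a larger difference in either direction. Middle minus caudal was −0.82 ± 0.13, a 1.76-fold difference, and rostral minus middle was 0.16 ± 0.13. In these means the larger step of Ptgds lay between middle and caudal cortex. All 6 arrays that set a rostral against a caudal pool gave a ratio below 0, between −0.97 and −0.43, and all 6 that set a middle against a caudal pool did too, between −1.21 and −0.46.

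Cxcl12 was lowest in the rostral pools, with −0.19, −0.22 and −0.09, an order not counted over all features, and middle and caudal pools overlapped. Its middle pools had −0.0016, 0.07 and 0.12 and its caudal pools 0.19, −0.0088 and 0.13. Rostral minus caudal was −0.27 ± 0.07, or 1.21-fold, and rostral minus middle was −0.23 ± 0.07, while middle minus caudal was −0.04 ± 0.07. In these means the larger step of the chemokine lay between rostral and middle cortex, where all 6 direct arrays were below 0 (−0.47 to −0.09). Without centring the order of the steps turned, with −0.13 for rostral minus middle and −0.21 for middle minus caudal. The medians of all features were then themselves 0.10 and −0.17. Of the 6 direct arrays between the ends, 5 were below 0.

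For Cthrc1 the rostral pools were at −0.15, −0.24 and −0.20, the middle pools at 0.04, −0.0016 and −0.0002, and the caudal pools at 0.13, 0.21 and 0.21. The 3 regions did not overlap: every rostral pool was below every middle pool and every middle pool below every caudal pool. How many of all features had this order was not counted. Rostral minus caudal was −0.38 ± 0.05, or 1.30-fold, made up of −0.21 ± 0.05 between rostral and middle and −0.17 ± 0.05 between middle and caudal. Without centring these steps were −0.11 and −0.34, where the medians of all features were themselves 0.10 and −0.17. Direct arrays were below 0 in 6 of 6 for each of the 3 pairs of regions.

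Among the matrix genes, Ltbp1 had the widest range. Its pool values were −0.31, −0.67 and −0.34 rostrally, −0.06, −0.32 and −0.23 in the middle and 0.65, 0.76 and 0.52 caudally. The lowest caudal pool stood 0.82 above the highest rostral pool, and R2 was the lowest of the 9. The means were −0.44 ± 0.20 rostral, −0.21 ± 0.13 middle and 0.65 ± 0.13 caudal (SD, n = 3 pools each). Caudal was 2.12-fold above rostral (−1.08 ± 0.12 on the log2 scale, SE), and 0.81% of features differed by more. The difference was −0.23 ± 0.12 between rostral and middle and −0.85 ± 0.12, or 1.80-fold, between middle and caudal. As for Ptgds, the larger step was the caudal one, and the 6 direct arrays between the ends lay between −1.37 and −0.87. The windows before the starts of these 2 genes, shown above, shared no match.

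Decorin (Dcn) was high in the caudal pools alone. Its rostral pools had 0.02, −0.16 and −0.28, its middle pools −0.06, −0.19 and −0.05 and its caudal pools 0.28, 0.16 and 0.29. Rostral and middle pools overlapped, and each caudal pool lay above all 6 of them, an order not counted over all features. Rostral minus caudal was −0.39 ± 0.09 (1.31-fold) and middle minus caudal −0.35 ± 0.09. Rostral minus middle was −0.04 ± 0.09. Without centring of the arrays this small value was 0.06, where the median of all features was itself 0.10. Repeat arrays of Dcn differed little, with a residual SD of 0.08 between arrays against a median of 0.26 over all features.

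Fibronectin (Fn1) differed least among the 6. The probe that stood for it had −0.12, −0.11 and −0.05 in the rostral pools, 0.04, −0.04 and 0.04 in the middle pools and 0.07, 0.08 and 0.09 in the caudal pools. The ends were 0.12 apart at their closest, with a mean difference of −0.17 ± 0.05, or 1.13-fold. A larger difference in either direction was measured for 32.5% of features. The other Fn1 probe gave −0.04, −0.08 and −0.09 rostrally, 0.11, 0.05 and 0.0012 in the middle and −0.14, 0.03 and 0.14 caudally. There the ends overlapped because C1 was the lowest pool of all, and the difference was −0.08 ± 0.08. The probes thus had the same sign for rostral against caudal, with the value of the second no larger than its error. That sign turned, to 0.0082, in a fit that also held the Gapdh control spots. Middle minus caudal was −0.07 ± 0.05 for the first probe and 0.04 ± 0.08 for the second. Without centring the second was −0.13, where the median of all features was −0.17. Without array 18, which held R3 and C1, the rostral and caudal pools of the first probe overlapped too, and 5 of the 7 genes in place of 6 had separate ends.

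Loxl1 had another profile, lowest in the middle. Its pools had 0.03, 0.16 and 0.12 rostrally, −0.31, −0.12 and −0.37 in the middle and 0.23, 0.05 and 0.19 caudally. Rostral and caudal pools overlapped and differed by −0.06 ± 0.09, while all 3 middle pools lay below the other 6. In 0.864% of all features the 3 middle pools were lowest. Rostral minus middle was 0.37 ± 0.09 and middle minus caudal −0.42 ± 0.09, a 1.34-fold difference. Loxl1 was also the least repeatable of the 7 genes between arrays, with a residual SD of 0.69, higher than that of 76.0% of features. The 6 arrays between the ends ranged from −1.28 to 0.72, the lowest being array 18. With arrays in place of pools as the unit, the SE of rostral against caudal was 0.22. The middle pools were no longer the lowest without R3, M3 or C1, or without array 1, 5 or 18, and without array 18 rostral minus caudal was 0.20 ± 0.21.

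**Figure D2:**
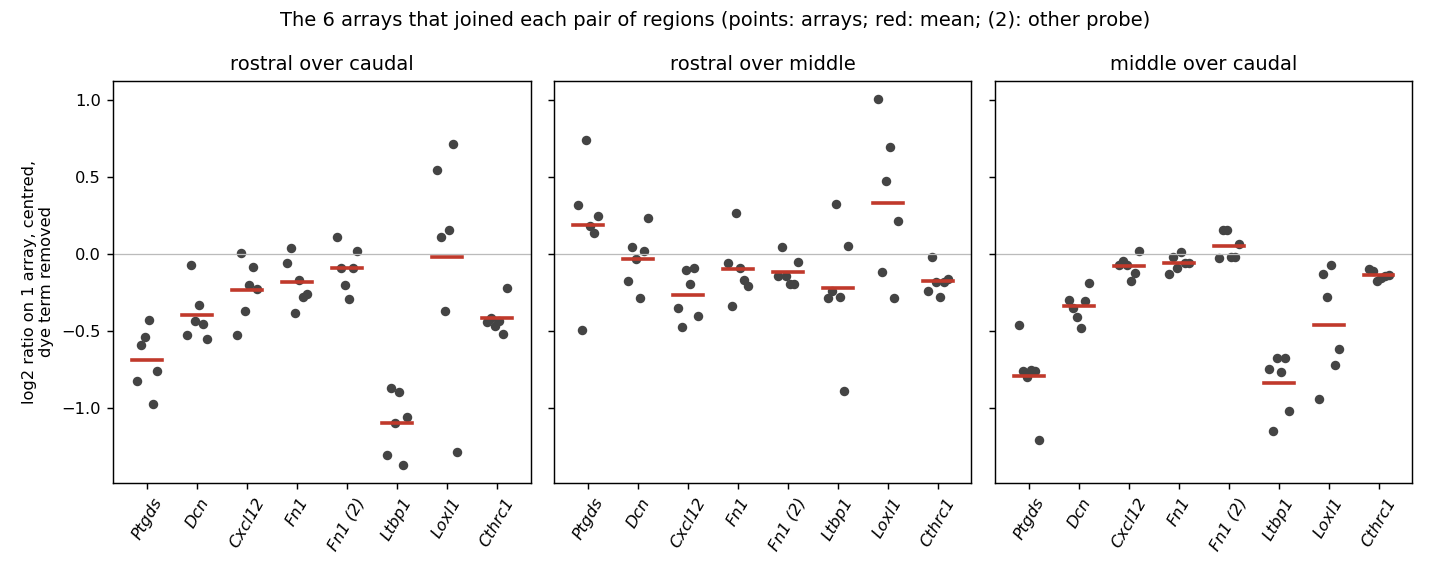
Log2 ratio on each of the 6 arrays that joined a pair of regions, centred and with the dye term removed, for the 8 probes; points are arrays, red lines their mean, and (2) marks the other Fn1 probe. Ptgds, Dcn, Ltbp1 and Cthrc1 lie below 0 on all 6 arrays for rostral over caudal, whereas Loxl1 spreads from −1.28 to 0.72.

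The arrays that set rostral against caudal tissue directly can be compared with the path through the middle pools, which used other arrays. Direct and indirect values were −1.10 and −1.05 for Ltbp1 and −0.68 and −0.60 for Ptgds. They were −0.39 and −0.37 for Dcn, −0.42 and −0.31 for Cthrc1, −0.23 and −0.34 for Cxcl12 and −0.18 and −0.15 for Fn1. Both paths gave the same sign for these 6 genes, and for Loxl1 both were near 0 against its array spread (−0.02 and −0.13). The paths share the rostral and caudal pools, and the 6 genes were chosen on this contrast, so nothing is read from the like sign.

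For the 6 genes chosen on rostral against caudal, where along the axis the difference lay was tested, since their recorded choice did not use it. This was asked as the middle minus the mean of the ends, which is 0 where the steps from rostral to middle and from middle to caudal are equal. Of the 7 probes of these 6 genes, 2 had an unadjusted p under 0.05 in limma (Ptgds and Ltbp1), as did 4.06% of all features (752 of 18525). After Benjamini-Hochberg adjustment 0 of 18525 features passed 0.05 in limma (0.0%). A limma fit in which arrays, which are repeat measurements of pools, counted as samples called 528 features. A p that misses the threshold does not show that the steps were equal.

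For Ptgds the middle minus the mean of the ends was −0.49 ± 0.12 (SE), with an unadjusted p of 0.00348 and an adjusted p of 1.0 in limma. Its unadjusted p lay between 0.000271 and 0.0366 when each pool or array was left out in turn. For Ltbp1 the value was −0.31 ± 0.11, with an unadjusted p of 0.0221 and an adjusted p of 1.0 in limma. In 7 of the 27 fits that left out a pool or an array the unadjusted p of Ltbp1 was above 0.05, up to 0.149. Loxl1 had −0.40 ± 0.07 (SE 0.19 with arrays as the unit), given as a description with no test. Dcn had −0.15 ± 0.08, with an unadjusted p of 0.0874 and an adjusted p of 1.0 in limma. With arrays as samples, the adjusted p of limma was 0.0117 for Ptgds and 0.0197 for Dcn. Arrays are repeat measurements of pools, so these values do not cover the spread among pools and nothing is called from them.

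For Cxcl12, Fn1 and Cthrc1 the middle minus the mean of the ends was above 0. It was 0.10 ± 0.06 for Cxcl12, 0.02 ± 0.04 for Fn1 and 0.02 ± 0.04 for Cthrc1, with unadjusted p of 0.161, 0.622 and 0.649 and an adjusted p of 1.0 for each in limma. The other Fn1 probe had 0.08 ± 0.07. Without centring, when the median of all features itself was −0.14, these 4 values were −0.04, −0.12, −0.12 and −0.05. By the order of the means alone, 5 of the 7 genes ran from rostral through middle to caudal, as 17.7% of all features did. The exceptions were Ptgds and Loxl1, and without centring Dcn as well, which left 4. Also 4 remained without R3, where Dcn left the order, and without array 5, where Cxcl12 did.

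**Figure D3:**
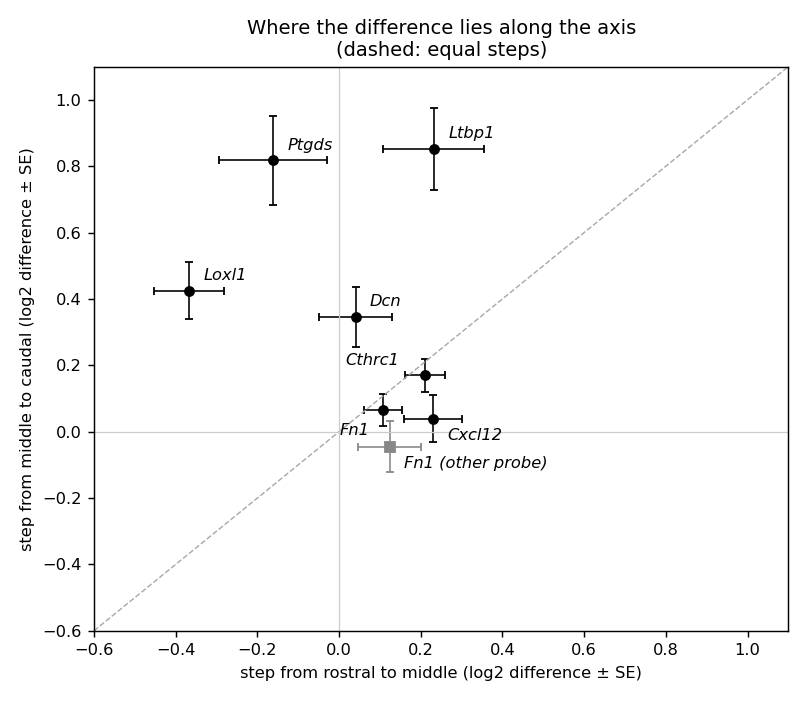
Step from rostral to middle (x axis) against step from middle to caudal (y axis), in log2 differences ± SE, for the 7 genes (black circles) and the other Fn1 probe (grey square); the dashed line marks equal steps. Ptgds, Ltbp1, Loxl1 and Dcn lie above the line, with caudal steps of 0.82, 0.85, 0.42 and 0.35, and Cthrc1, Cxcl12 and both Fn1 probes lie below it. Without centring of the arrays these 4 probes lie above it, but the median of all features for the middle minus the mean of the ends is then itself −0.14.

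Correlations between the genes over the 9 pools follow in part from their choice, since 6 of the 7 were chosen on rostral against caudal, and nothing is read from their sign. Pearson's r between pairs of genes ran from −0.14 to 0.92 with a median of 0.63, and 19 of 21 pairs were above 0. With the region means removed, r ran from −0.62 to 0.52 with a median of 0.0020, and 11 of 21 pairs were above 0. All pairs share the same pools and arrays, and these correlations over 9 pools are a description. Ltbp1 was most like the mean of the other 6 genes (r = 0.936) and Loxl1 least (r = 0.315).

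Other genes of the meninges and their mesenchyme were listed by their known role, though with earlier results of these data known. The 7 were chosen by their values, so the differences of the listed genes between the ends cannot be set against those of the 7. Of 22 listed, 19 were measured, and 15 of the 19 had a rostral minus caudal difference below 0, with a median of −0.07. Pdgfra, a receptor of mesenchymal cells, was the 1 gene whose rostral pools all lay below the caudal ones (−0.19 ± 0.09). Col6a2, a collagen VI chain, was the 1 gene with the opposite order (0.48 ± 0.18). Of all features, 5.89% had the first of these orders and 6.22% the second. The fibrillar collagen genes Col1a1, Col1a2 and Col3a1 had −0.15 ± 0.07, −0.04 ± 0.07 and −0.01 ± 0.05. The retinoic acid enzyme gene Aldh1a2 and the regulator gene Foxc2, both markers of meningeal fibroblasts, had −0.09 ± 0.08 and −0.15 ± 0.16. Besides Col6a2, the listed genes above 0 were Crabp2 (0.16 ± 0.10), Twist1 (0.11 ± 0.14) and Slc22a6 (0.11 ± 0.06). None of the 19 passed in the test of the middle against the ends.

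Markers of other tissues were set beside the 7 genes pool by pool. The mean of the 7 genes was −0.14, −0.19 and −0.14 in R1 to R3, −0.11, −0.16 and −0.08 in M1 to M3 and 0.30, 0.27 and 0.25 in C1 to C3. The median of 8 of 12 red blood cell genes was −0.05, −0.02 and −0.18 rostrally, 0.07, 0.11 and 0.05 in the middle and −0.15, 0.08 and 0.08 caudally. Of the 8, 5 were below 0 for rostral minus caudal, with a median of −0.15. Slc4a1 (0.28 ± 0.14), Gata1 (0.23 ± 0.43) and Hba-a1 (0.07 ± 0.08) were above 0. Of the 8, 3 (Hbb-y, Alas2 and Epb42) had all rostral pools below all caudal pools, as 5.89% of all features did. The Gapdh control spots had a like profile, −0.07, −0.04 and −0.15, then 0.08, 0.09 and 0.07, then −0.14, 0.03 and 0.14. Like the mean of the 7 genes, both profiles were below 0 in the rostral pools and above 0 in C2 and C3. Both were below 0 in C1, where the mean of the 7 genes was highest, and above 0 in the middle, where that mean was below 0. This holds for the mean and not for each gene. C1 was the highest pool of Cxcl12 and Loxl1 alone, and Cxcl12, Fn1 and Cthrc1 had middle means above 0 (0.06, 0.01 and 0.01). In a fit that also held the Gapdh control spots, the median of rostral minus caudal over the 7 genes was −0.355. The part of the red blood cell genes was not tested.

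Of the 14 measured genes of endothelial and mural cells (16 listed), 7 were below 0 for rostral minus caudal, with a median of 0.0052 and pool medians between −0.05 and 0.08, and Cldn5 alone had separate ends (−0.14 ± 0.07). Of 9 measured microglial genes (11 listed), 7 were below 0, with a median of −0.05. The choroid plexus list had 1 of 5 below 0 (8 listed, median 0.06) and the surface epithelium list 2 of 6 (9 listed, median 0.06). In the 10 measured neocortical genes (11 listed) the median was −0.09, with 6 below 0. Of these, 4 (Emx2, Lhx2, Neurod1 and Fezf2) had rostral pools all below caudal pools, as 5.89% of all features did. Neurod6 had the opposite order (0.19 ± 0.06), as 6.22% of all features did. In the 7 ventral telencephalic genes (8 listed) the median was −0.02, with 4 below 0, and Gsx2 had separate ends (−0.53 ± 0.12).

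**Figure D4:**
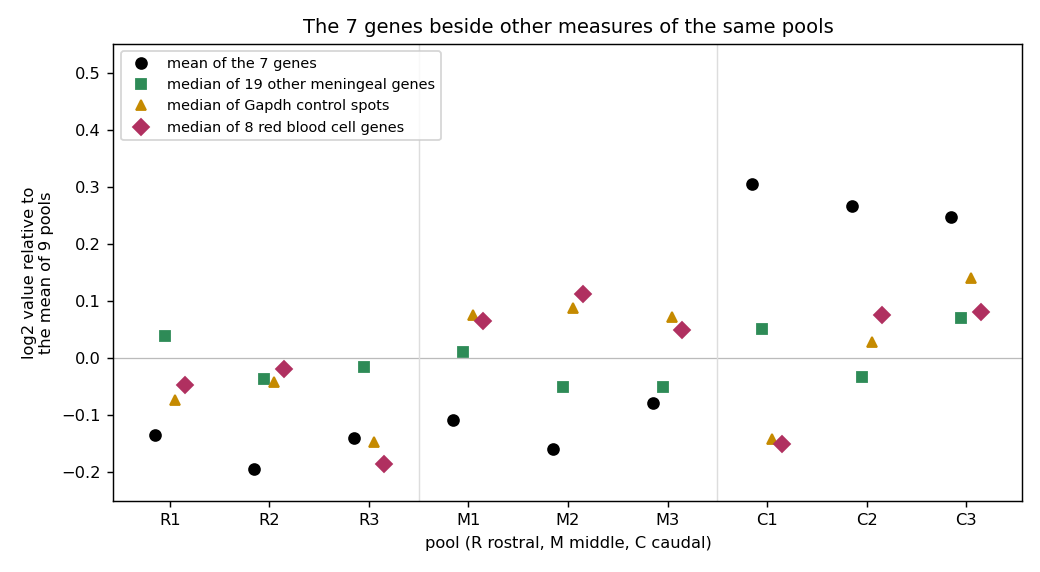
Log2 value of each pool relative to the mean of the 9 pools (y axis) for rostral, middle and caudal pools (x axis): mean of the 7 genes, and medians of 19 other meningeal genes, of the Gapdh control spots and of 8 red blood cell genes. The mean of the 7 genes, which were chosen by their values, stands at 0.25 to 0.30 in the caudal pools and below 0 in the other 6. The median of the other meningeal genes lies between −0.05 and 0.07. A mean of genes chosen by value and a median of listed genes are unlike measures and cannot be set against each other.

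The partners of the 7 genes were read by role, as counts and medians of rostral minus caudal. Over all features, 5.89% had rostral pools all below caudal pools and 6.22% the opposite order. Both Cxcl12 receptors were measured. Cxcr4, the signalling receptor, had rostral pools of −0.0016, −0.0022 and −0.17 below caudal pools of 0.22, 0.10 and 0.04, a difference of −0.18 ± 0.08. Ackr3, which takes up the ligand, had −0.14 ± 0.18, with overlapping pools. Of the other prostaglandin genes 9 of 10 were measured, 5 were below 0 with a median of −0.03, and 0 had separate ends. The prostaglandin D2 receptor genes Ptgdr and Ptgdr2 had −0.09 ± 0.20 and −0.09 ± 0.36, and Hpgd, which breaks prostaglandins down, had 0.13 ± 0.13.

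Of the genes of latent TGF-beta and its receptors 12 of 15 were measured, 8 were below 0, and the median was −0.09. Fbn2, a fibrillin to which latent complexes bind, had −0.28 ± 0.07, the type I receptor gene Tgfbr1 −0.28 ± 0.09 and Thbs1, an activator of latent TGF-beta, −0.15 ± 0.08. Each had rostral pools below caudal pools, as 5.89% of all features did. Ltbp4, a relative of Ltbp1, had the opposite order, with 0.23 ± 0.06. Ltbp2 had −0.41 ± 0.39 and Ltbp3 0.16 ± 0.16, neither beyond 2 of its standard errors.

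Of the fibronectin receptors and partners 9 of 9 were measured and 5 were below 0, with a median of −0.01. The integrin genes Itga8 (0.49 ± 0.59) and Itga4 (0.25 ± 0.72) had the largest values and the largest errors, and Itgb1, which pairs with most fibronectin-binding alpha chains, had −0.01 ± 0.04. The 3 probes of Itgav, an alpha chain, had differences of either sign (−0.09 ± 0.16, 0.21 ± 0.08 and 0.22 ± 0.24). The matrix gene Tnc had rostral pools above caudal pools by a small margin (0.05 ± 0.28). Of the lysyl oxidases and elastic fibre genes 7 of 9 were measured, 5 were below 0 and the median was −0.07. Emilin1 had rostral pools below caudal pools, at −0.66 ± 0.46, with C2 at 1.24 against −0.34 and −0.31 in C1 and C3. Loxl4 had −0.62 ± 0.29 and Loxl2 −0.17 ± 0.12, with overlap, and elastin (Eln), a substrate of the enzymes, −0.0081 ± 0.06.

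The proteoglycan relatives of decorin had 7 of 8 genes below 0 and a median of −0.11, and Kera was the exception, with rostral pools above caudal pools (0.18 ± 0.05). Prelp had −0.41 ± 0.18 and Lum −0.33 ± 0.14, both with overlapping pools. Of 8 listed genes of Wnt planar polarity 7 were measured, and all 7 were below 0, with a median of −0.09. Of them 1, the receptor gene Fzd6 (−0.13 ± 0.06), had separate ends. Vangl2 had −0.52 ± 0.68 and the receptor gene Ror1 −0.13 ± 0.33. In all, 129 list genes were measured, 6 had an unadjusted p under 0.05 in the test of the middle against the ends, and 0 had an adjusted p under 0.05 in limma, where 4.06% of all features had the former.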

How the data were processed

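The 7 genes and all gene lists were chosen with earlier results of these data known. The authors deposited a table of log2 ratios for 21998 probes on 18 arrays. The scanner, how background and dyes were corrected, and which dye is the numerator were not given in the sources used here. RNA was extracted with Trizol, per the labels. Probes were named through the platform annotation.

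Of the probes 232 were Gapdh control spots and stayed out of the tests. Ratios at the cap of the table (log2 16.6, 1477 values, 0 of them in the 8 probes) were set to missing. Array medians ran from −0.093 to 0.612, so each array was centred on its median. Features with values on at least 12 arrays and at least 2 arrays of each pool were kept. Pool values, summing to 0, and a dye term were fitted per feature by least squares. These 9 pool values went into limma 3.58.1 under R 4.3.3 (lmFit, then eBayes), with 1 mean per region (6 residual and 1.26 prior degrees of freedom), and two-sided p-values took the Benjamini-Hochberg adjustment over the 18525 features. This processing was run on simulated data to check that differences put in were returned. That check set no requirement on how many features were called. Genes named besides the 7 are up to 3 per list of partners with the largest rostral minus caudal difference, and those with separate ends. Also named, chosen after their values were seen, are textbook markers of the meninges, the other meningeal and the red blood cell genes above 0, and Ltbp3, Itgb1 and Eln. A gene with several probes was represented by the probe measured on most arrays. Motifs were searched in RefSeq's promoter table (GRCm38.p6). Alternatives were no centring, capped ratios kept, other filters, no dye term, arrays as samples, the pool number as a block, the Gapdh control spots as a covariate, robust eBayes, and each pool or array left out.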

Additional observations from a re-analysis of the deposited data

Results flagged for a closer look

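In 1 of 24 groups of 6 arrays (8 probes, 3 pairs of regions) an array stood apart from the others by Dixon's test, which marks about 1 group in 20 by chance. It was Cthrc1 on the arrays between rostral and caudal pools. Array 18, which held R3 and C1, gave −0.22 on the log2 scale, while the other 5 arrays lay between −0.52 and −0.41. Without array 18, rostral minus caudal was −0.40 ± 0.05 for Cthrc1 in place of −0.38 ± 0.05.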

How the results depend on the processing

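All 36 alternatives were run. In 35 of them 0 features passed when the middle was tested against the ends, and the fit with arrays as samples called 528. Whether pool numbers pair the pools is not known. Same-numbered pools deviated from their region means with correlations of −0.364 to −0.0368. No array joined pools of the same number, so these correlations may follow from the array layout and cannot decide it. With the pool number as a replicate block 0 features passed, as in the main fit. Medians over the 7 genes, given as rostral minus caudal, rostral minus middle and middle minus caudal, were −0.45, −0.0064 and −0.52 without centring. Those of all features were then −0.07, 0.10 and −0.17. When a pool or an array was left out the medians over the 7 genes ran from −0.39 to −0.32, from −0.17 to −0.069 and from −0.38 to −0.30. Between 5 and 6 of the 7 genes had separate ends in all alternatives. Rostral minus caudal of Loxl1 lay between −0.20 and 0.20 when a pool or an array was left out, above 0 in 7 of these fits, the lowest of them at 0.0005. That of the other Fn1 probe turned to 0.0082 with the Gapdh covariate. The causes were not tested. That of Ltbp1 stayed between −1.16 and −0.97 and that of Ptgds between −0.75 and −0.60. The adjusted p of the middle against the ends was lowest with arrays as samples, at 0.0117 for Ptgds, 0.0197 for Dcn and 0.0588 for Ltbp1, and reached 1.0 in other fits. The fit with arrays as samples leaves out the spread among pools, so nothing is called from it.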

Other observations

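The mean of the 7 genes was compared with other features by Pearson's r over the 9 pools. These were 10376 features of 1 gene with values on all 18 arrays. They share pools and arrays with the 7, and r is a description. The log2 values were averaged unscaled, so Ltbp1 and Ptgds, with the widest differences, weigh most in this mean. The 10 highest were Slf1 (r = 0.97), Ntrk2 (0.965), the 2 probes of Gpm6a (0.964 and 0.959), Apcdd1 (0.962), Zcchc12 (0.958), Pter (0.944), Nell2 (0.938), Gja1 (0.936) and Dab2 (0.932). Gpm6a encodes a neuronal membrane glycoprotein, Ntrk2 the receptor of the neurotrophin BDNF, Apcdd1 an inhibitor of Wnt signalling, and Gja1 the main gap junction protein of neural progenitors. Rostral minus caudal was −0.48 ± 0.09 and −0.46 ± 0.09 for Gpm6a, −0.28 ± 0.05 for Ntrk2, −0.22 ± 0.05 for Apcdd1 and −0.61 ± 0.11 for Gja1. In each of these 4 genes the rostral minus middle difference was small beside it, between −0.10 and −0.0026.

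The 5 features least like them were Cdkn2d (r = −0.979), Bub1b (−0.974), Spc25 (−0.972), Fam32a (−0.971) and Stk39 (−0.969). Bub1b and Spc25 act at the kinetochore in mitosis, and Cdkn2d encodes an inhibitor of cyclin D-dependent kinases. Rostral minus caudal was 0.44 ± 0.05 for Cdkn2d, 0.21 ± 0.04 for Bub1b and 0.26 ± 0.05 for Spc25, and the middle to caudal part of it was 0.34 ± 0.05, 0.17 ± 0.04 and 0.21 ± 0.05.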
